A study of Rattus norvegicus with 115 samples.

Results

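The libraries described here are the epithelial columns of a count table of rat mammary tumours, comparing rats given anti-PD-L1 antibody plus the inhibitor LY2157299 with rats given the antibody alone. Virgin Sprague Dawley rats had received 50 mg/kg of the carcinogen N-nitroso-N-methylurea (NMU) in 1 to 3 injections at 35 to 53 days of age per the labels (the sample table gives a range that differs in part), and drug treatment began once a tumour could be felt. The PDL1+LY rats received the anti-PD-L1 antibody and LY2157299 (galunisertib, which blocks the kinase of the TGF-beta receptor TGFBR1), and the PDL1 rats received the antibody only. The rats of both groups carried NMU tumours and were otherwise untreated as far as the labels say, and LY rats (inhibitor alone) and Vehicle rats entered the fit to share 1 estimate of the spread. Drugs reached the whole animal, so a difference between the groups is not tied to the epithelial cell itself.

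The study sorted tumour cells on EpCAM and on smooth muscle actin (SMA, the product of Acta2), with a double negative (DN) fraction. The labelled fractions of the samples are CD45 (leukocytes), Ep and DN, and no label names an SMA fraction. Columns were chosen by measured values, because nearly all column names give a rat and a tumour but not the fraction. A column counted as epithelial where the leukocyte gene Ptprc lay under 150 CPM (counts scaled to a common column total) and the epithelial adhesion gene Epcam lay at 300 CPM or more and above the collagen gene Col1a1. The rule found 24 epithelial columns among the 45 columns of the PDL1+LY and PDL1 rats, and the table holds 84 columns beside these 24. Of them 12 came from 5 PDL1+LY rats (1 column from P23, 4 from P31, 2 each from P32 and P34, and 3 from P36) and 12 from 7 PDL1 rats (1 each from P24, P28, P30 and P38, 2 from P27, and 3 each from P26 and P29). The columns of a rat were summed, and the rat is the replicate. How many columns, and so which sorted fractions, went into a sum therefore differed between rats. Levels of Ptprc, Epcam and Col1a1 are a consequence of the rule and no finding. Just inside the rule lay a column of PDL1 rat P28 with Ptprc at 124 CPM and a column of PDL1+LY rat P36 with Epcam at 1865 and Col1a1 at 1636 CPM. Just outside lay a column of PDL1+LY rat P33 with Epcam at 2699 and Col1a1 at 3962 CPM. A column of PDL1 rat P30 also lay just outside, with Epcam at 1595 and Col1a1 at 1886 CPM. The groups were not affected alike. On Col1a1 alone the rule left out columns of PDL1 rats P24, P26, P29 and P30, but only of P33 among PDL1+LY rats.

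The mammary epithelium has an inner layer of luminal cells, which can secrete milk, and an outer layer of basal or myoepithelial cells, which contract and rest on the basement membrane. Blockade of PD-L1 releases T cells that recognise tumour cells, and TGF-beta, the ligand of the inhibited receptor, restrains T cells and epithelial growth and drives matrix production. Interferon-gamma from T cells raises antigen presentation and PD-L1 itself in tumour epithelium.

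Epithelial markers were high in every rat. By total counts the sum of Krt8, Krt18, Krt19 and Cdh1, markers the rule did not use, lay between 5862 and 10669 CPM in PDL1+LY rats and between 7740.2 and 12465 CPM in PDL1 rats. Krt8, a keratin of luminal cells, had 2358, 2786, 3348, 5289 and 2883 CPM in PDL1+LY rats P23, P31, P32, P34 and P36, and 2341 to 5950.1 CPM (median 3386) in PDL1 rats. The ranges of the groups overlapped for both. Summed counts ran from 8050029 to 47491491 per PDL1+LY rat and from 4367999 to 28846390 per PDL1 rat. No column repeated another. By column name only the epithelial columns of P23 and P38 could be tied to a single labelled sample, and that label is DN in both, although their Epcam lay at 1217 and 1305 CPM. For the other columns the labels give the fractions of the tumour but not which column is which, and no fraction was assigned from measured values. PDL1 rats P28, P24 and P38 stood apart from the other rats on the leading principal components of log2 CPM. The components were computed on the most variable genes only and held 30.2% and 21.1% of the variance of those genes. Values without these 3 rats are given where a result rests on them.

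No single gene passed the test. Of 13027 genes tested by edgeR's quasi-likelihood test with Benjamini-Hochberg adjustment, 0 (0%) passed at 0.05, and the smallest adjusted p was 0.339. At an unadjusted p under 0.05 edgeR counted 245 genes (1.88%) higher and 160 genes (1.23%) lower in PDL1+LY rats, and the median log2 fold change of all genes tested was -0.031. Limma voom called 0 genes and DESeq2 called 12 of the 11480 genes it adjusted (0.105%). The 12 were Csn2, Il17b, Plod1, Pgf, Fabp3, Popdc2, Acta2, Id4, Irx4 and Calml3, all higher, and Havcr2 and Cd80, both lower. In 36 genes (0.276%) every PDL1+LY rat lay above every PDL1 rat, and in 4 genes (0.0307%) every PDL1+LY rat lay below. All CPM from here on are scaled by TMM unless total counts are named, and fold changes are log2 values of PDL1+LY over PDL1. Since no gene passed, "higher" and "lower" below describe values.

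Genes of basal and myoepithelial cells were higher in PDL1+LY rats, and they lead the comparison. Of 23 listed genes 21 were tested, 18 had fold changes above 0, 13 had an unadjusted edgeR p under 0.05 in the higher direction against 1.88% of all genes, and 0 passed over all genes. The list's median log2 fold change was 1.32. It lay between 1.18 and 1.67 when each rat was left out in turn, at 1.85 without PDL1 rats P24, P28 and P38, and at 1.41 and 1.10 within batches 2 and 3 of the sample table. Smooth muscle and pericyte genes, which share the contractile members, had a median of 0.99, with 9 of 13 above 0.

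Acta2, the smooth muscle actin that gives myoepithelial cells their contractile fibres, had 130.4, 124, 184, 225 and 141 CPM in PDL1+LY rats P23, P31, P32, P34 and P36, and 8.03 to 76.9 CPM (median 20.4) in PDL1 rats. The groups did not overlap, and the PDL1 rat nearest to the PDL1+LY rats was P38. The log2 fold change was 2.63 (SE 0.643, edgeR adjusted p = 0.588, DESeq2 adjusted p = 0.0228). Since cells were sorted on SMA, the gate can set the level of Acta2, and the names do not give the gate of most columns. Krt5, a keratin of the basal layer, had 865, 303, 224, 338 and 276 CPM in PDL1+LY rats and 50.97 to 350.4 CPM (median 93.7) in PDL1 rats. Among PDL1 rats P38 again lay highest, and it lay above every PDL1+LY rat except P23. The log2 fold change of Krt5 was 1.67 (SE 0.439). Krt14, the partner of Krt5 in basal filaments, had 119, 245, 167, 306 and 34.7 CPM in PDL1+LY rats and 12.9 to 161 CPM (median 37.1) in PDL1 rats. Rats P23 and P36 lay below PDL1 rat P24, and the log2 fold change was 1.68 (SE 0.612).

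The calponin Cnn1 and the actin-binding protein Tagln, both of contractile cells, showed the same order, with more overlap than Acta2. Cnn1 had 275, 136, 197, 177 and 204 CPM in PDL1+LY rats and 6.65 to 185 CPM (median 35.03) in PDL1 rats (log2 1.81, SE 0.734). Tagln had 459, 401, 447, 275 and 241 CPM in PDL1+LY rats and 30.4 to 261 CPM (median 79.3) in PDL1 rats (log2 1.63, SE 0.468). Tpm2, a tropomyosin of contractile filaments, had 513, 284, 404, 455 and 335 CPM in PDL1+LY rats and 23.02 to 220.5 CPM (median 70.8) in PDL1 rats, with no overlap (log2 2.00, SE 0.533). Flna, the filamin that crosslinks actin, had 160.4 to 221 CPM in PDL1+LY rats and 42.4 to 132 CPM in PDL1 rats, also without overlap (log2 1.12, SE 0.278).

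Some basal regulators and structural genes separated the groups as well, and these were chosen after their values were seen. Tp63, the transcription factor that maintains basal epithelium, had 87.2, 37.02, 40.6, 37.01 and 24.2 CPM in PDL1+LY rats and 6.02 to 14.2 CPM (median 8.51) in PDL1 rats (log2 2.21, SE 0.642). Snai2, a repressor of luminal differentiation, had 8.96 to 24.1 CPM in PDL1+LY rats and 0 to 6.44 CPM in PDL1 rats. The value of 0 belonged to rat P28, whose total allows up to 0.303 CPM for 3 counts, and the log2 fold change was 2.36. The smooth muscle myosin Myh11 had 49.2 to 174 CPM in PDL1+LY rats and 0 to 30.1 CPM in PDL1 rats, 0 again in P28 (log2 2.89). Krt15, a keratin of basal progenitors, had 152 to 529 CPM against 9.01 to 137 CPM in PDL1 rats (log2 2.32), and Col17a1, the collagen of the hemidesmosomes that anchor basal cells, had 33.3 to 77.9 CPM against 2.52 to 28.4 CPM in PDL1 rats (log2 2.36).

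A sum of 5 fixed markers of smooth muscle and myoepithelium (Acta2, Myh11, Tagln, Krt14 and Krt5, CPM by total counts) was 1869, 1262, 1105, 1142 and 905 in PDL1+LY rats and 111.5 to 662 (median 328) in PDL1 rats. The log2 difference of 2.04 passed an exact two-sided permutation test over 792 splits of the rats (p = 0.00253, 0.0202 after Benjamini-Hochberg adjustment over 8 marker sums). Each of the other 7 sums missed the threshold, with exact permutation adjusted p from 0.381 to 0.909. Without Acta2 the sum of the other 4 markers gave a log2 difference of 1.94 (exact permutation adjusted p = 0.0202), with 755 to 1728 CPM in PDL1+LY rats and 101.5 to 596 CPM in PDL1 rats. The myoepithelial call was lost without PDL1+LY rat P23 (exact permutation adjusted p = 0.0727, log2 difference 1.88). Within batch 3 the log2 difference was 0.95 over 2 PDL1+LY and 4 PDL1 rats (exact permutation p = 0.467). The groups overlapped there, with 159 and 1869 CPM in PDL1+LY rats and 83.9 to 662 CPM in PDL1 rats. No call was possible in batch 3 in any case, since the smallest exact permutation p that 15 splits allow is 0.0667. The log2 fold change of Acta2 alone was 1.07 within batch 3 and 3.18 within batch 2. Within batch 2 (4 and 5 rats, log2 2.12) no PDL1+LY rat overlapped a PDL1 rat, and the smallest exact permutation p that 126 splits allow is 0.00794, which cannot pass over 8 sums on its own. Over the tumours with 2 epithelial columns alone, which leaves 4 PDL1+LY and 3 PDL1 rats, the sum was 1105 to 1367 CPM in PDL1+LY rats and 328 to 384 CPM in PDL1 rats (log2 1.80), where the smallest exact permutation p of 35 splits is 0.0286.

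**Figure D1:**
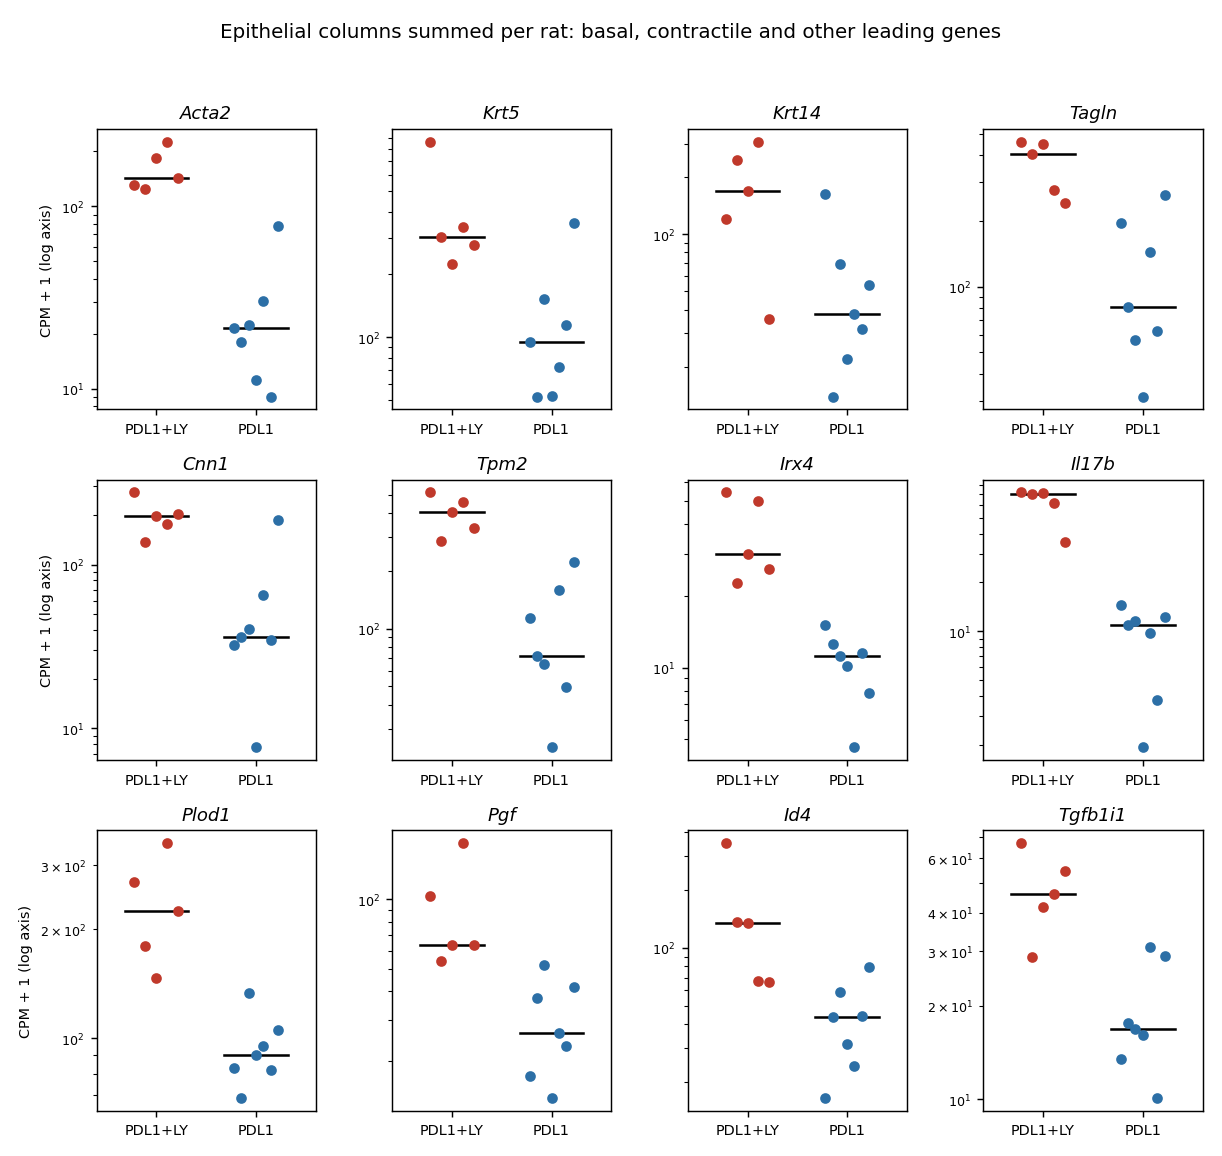
Each panel plots 1 gene, with the level in the summed epithelial columns of each rat as CPM + 1 on a log axis, PDL1+LY rats (5, red) left of PDL1 rats (7, blue), and bars at the group medians. Acta2, Tpm2, Irx4, Il17b, Plod1 and Pgf show no overlap between the groups, while Krt5, Krt14, Tagln, Cnn1, Id4 and Tgfb1i1 overlap in 1 or more rats.

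Myoepithelial transcripts were unevenly spread over the columns of a single tumour. Columns were set in order by Col3a1, a fibrillar collagen the rule did not use, although it goes with the rule's Col1a1 (Pearson r of log2 CPM 0.96 over the 24 columns). There were 8 tumours with 2 epithelial columns each. In all 8 tumours Acta2, Krt14, Plod1 and Il17b were higher in the column with more Col3a1, and Krt5 and Irx4 in 7 of 8. In tumour T3 of PDL1+LY rat P31 the 2 columns had 308 and 18.8 CPM of Acta2 beside 111.9 and 1.17 CPM of Col3a1, by total counts. In tumour T2 of PDL1 rat P29 they had 68.6 and 10.5 CPM of Acta2 beside 1129 and 222 CPM of Col3a1. Across tumours the relation was weak. Over the 24 columns, which share rats and tumours, r with Col3a1 was 0.40 for Acta2, 0.10 for Krt14, 0.32 for Krt5 and 0.51 for Plod1. The column of tumour T3 of PDL1+LY rat P36 had 8.03 CPM of Acta2 beside 646 CPM of Col3a1.

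Among the columns with more Col3a1 in these tumours Acta2 lay between 139 and 405 CPM in 5 PDL1+LY tumours and between 39.6 and 68.6 CPM in 3 PDL1 tumours. Among those with less Col3a1 it lay between 14.7 and 74.1 CPM in the PDL1+LY tumours and between 6.76 and 38.5 CPM in the PDL1 tumours. Of the 12 PDL1+LY columns 7 lay above the highest PDL1 column, while the lowest of them was that of tumour T3 of rat P36. Columns of 1 tumour share their source and are no replicates. Fibroblast markers that the rule did not use were all measured: the sum of Col1a2, Col3a1, Dcn and Pdgfra ran from 217 to 2036 CPM in PDL1+LY rats and from 12.5 to 804 CPM in PDL1 rats. With log2 Ptprc and log2 Col1a1 of the rat as covariates the median of the basal list was 1.24, and among columns with Col1a1 under 100 CPM it was 1.07. The columns left out on Col1a1 alone had 41.6, 145.6, 60.6 and 35.8 CPM of Acta2 in PDL1 rats P24, P26, P29 and P30. The kept columns of the same tumours had 7.11, 30.6 and 7.81 CPM in P26, P29 and P30. The kept column of P24, from another tumour, had 21.3 CPM. The left-out column of PDL1+LY rat P33, which has no kept column, had 105.25 CPM of Acta2 and 1041 CPM of Krt14. Its Acta2 lay below that of the left-out column of P26 and above those of P24, P29 and P30. In bulk samples more cells of a type and more RNA per cell cannot be told apart. The part of the column rule, the sorted fractions and fibroblast transcripts in these differences was not tested.

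**Figure D2:**
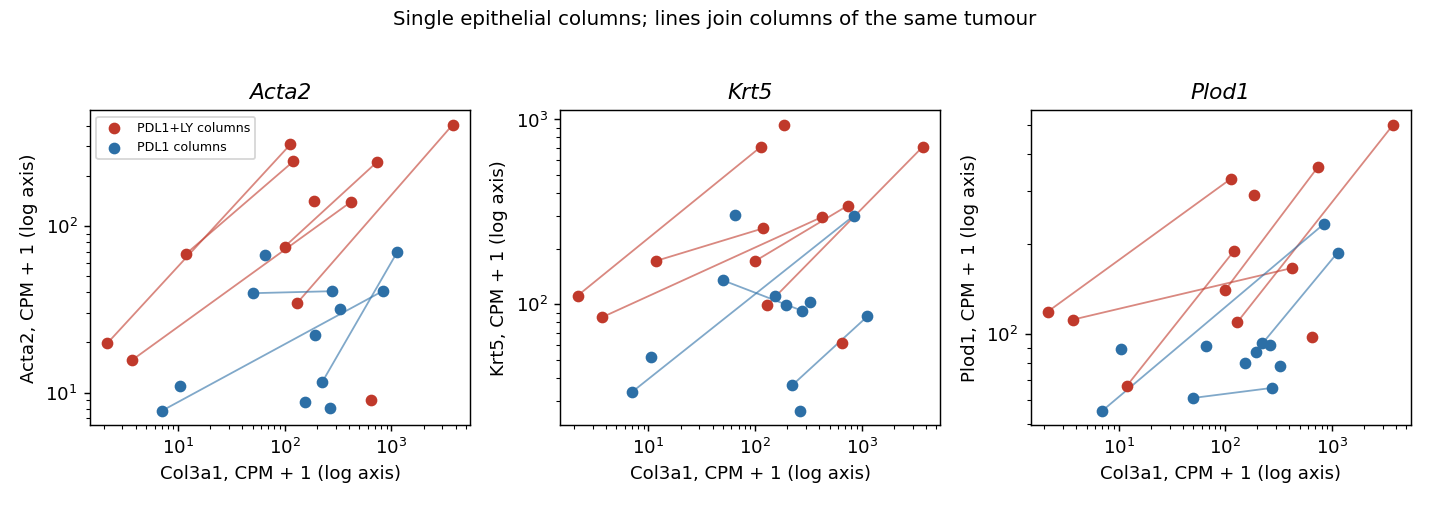
Each point is 1 of the 24 epithelial columns, with Col3a1 on the x axis and Acta2, Krt5 or Plod1 on the y axis, all as CPM + 1 by total counts on log axes, PDL1+LY columns in red and PDL1 columns in blue. Lines join the 2 columns of a tumour, and all 8 lines run upward for Acta2 and Plod1 and 7 of 8 for Krt5.

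The 20 genes with the smallest p were all higher in PDL1+LY rats, and several of them act in collagen maturation, growth factor signalling or transcription. Irx4, a homeobox transcription factor, had 53.1, 21.5, 28.9, 48.8 and 24.9 CPM in PDL1+LY rats and 3.63 to 14.02 CPM (median 10.2) in PDL1 rats. The groups did not overlap (log2 1.92, SE 0.368, edgeR adjusted p = 0.339). Il17b, a cytokine of the interleukin-17 family, had 70.7, 68.9, 70.5, 60.6 and 34.4 CPM in PDL1+LY rats and 0.921 to 13.6 CPM (median 9.95) in PDL1 rats. Again no rat of either group fell in the range of the other (log2 2.89, SE 0.600, edgeR adjusted p = 0.393).

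Plod1, the lysyl hydroxylase that modifies collagen before it is crosslinked, had 269, 179, 146, 344 and 224 CPM in PDL1+LY rats and 67.5 to 132 CPM (median 89.1) in PDL1 rats. The groups did not overlap (log2 1.32, SE 0.262, edgeR adjusted p = 0.339). P4ha1, the prolyl hydroxylase that lets collagen helices form, had 92.6, 63.2, 118.8, 155 and 75.2 CPM in PDL1+LY rats and 31.7 to 70.8 CPM (median 54.1) in PDL1 rats, with only rat P31 inside the PDL1 range (log2 1.01, SE 0.248). Pgf, the placental growth factor of the VEGF family, had 102.2, 53.01, 62.5, 174 and 62.2 CPM in PDL1+LY rats and 12.8 to 50.9 CPM (median 25.5) in PDL1 rats, without overlap (log2 1.63, SE 0.358).

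Id4, an inhibitor of helix-loop-helix transcription factors found in basal mammary cells, had 350.1, 135, 134, 66.1 and 65.3 CPM in PDL1+LY rats and 15.5 to 78.6 CPM (median 42.9) in PDL1 rats. Its log2 fold change of 1.85 (SE 0.406) was 1.26 without rat P23. Calml3, a calmodulin-like protein of stratified epithelium, had 12.99 to 36.5 CPM in PDL1+LY rats and 3.25 to 10.5 CPM in PDL1 rats (log2 1.76). Popdc2, a membrane protein known from muscle, had 3.36 to 20.2 CPM against 1.45 to 2.56 CPM in PDL1 rats (log2 2.37). Neither overlapped.

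Tgfb1i1, Phlda3, Crispld2 and Jam3, of the same 20, overlapped between the groups. Tgfb1i1, a focal adhesion protein whose gene TGF-beta can induce, had 66.1, 27.8, 40.7, 45.05 and 53.5 CPM in PDL1+LY rats and 9.07 to 30.03 CPM (median 15.8) in PDL1 rats (log2 1.36, SE 0.315). It was thus higher where the receptor inhibitor was added to the antibody. Between LY and Vehicle rats its log2 fold change was 0.07 (SE 0.364). Phlda3, a p53 target that restrains AKT, had a log2 fold change of 1.36, the secreted protein gene Crispld2 of 1.81 and the junctional adhesion molecule Jam3 of 1.78. Jam3 stood at 27.9 CPM in rat P32 and at 67.8 to 86.7 CPM in the other PDL1+LY rats, against 6.65 to 37.4 CPM in PDL1 rats. Fabp3, Csn1s2a, Wap and Scgb1a1, also among the 20, are given with the milk genes.

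Milk protein genes were very high in 1 PDL1+LY rat. Of 23 listed genes of milk and alveoli 23 were tested, 19 had fold changes above 0, 7 had an unadjusted edgeR p under 0.05 in the higher direction against 1.88% of all genes, and 0 passed over all genes. The median log2 fold change was 0.74, and it was 0.08 without PDL1+LY rat P34. Csn2, the beta-casein, had 3429, 15.1, 11.6, 43838 and 16.6 CPM in PDL1+LY rats P23, P31, P32, P34 and P36, and 0.219 to 99.9 CPM (median 3.17) in PDL1 rats. Rat P34 lay highest, P23 next, and the other 3 PDL1+LY rats within the PDL1 range. The log2 fold change was 9.03 (SE 2.52, edgeR adjusted p = 0.955, DESeq2 adjusted p = 0.000634) and 5.58 without P34.

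Csn1s2a, an alpha-S2-like casein, had 0.115, 1.41, 0.981, 2346 and 0.12 CPM in PDL1+LY rats and at most 1.54 CPM in PDL1 rats. Its log2 fold change of 9.12 was -0.41 without P34. The whey acidic protein Wap had 9.75, 23.8, 15.9, 1765 and 9.80 CPM in PDL1+LY rats and 1.02 to 23.5 CPM in PDL1 rats, and its fold change of 5.02 was 0.38 without P34. Scgb1a1, a secretoglobin, had 82.96 CPM in P34 and at most 0.91 CPM in any other of the 12 rats.

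Fabp3, the fatty acid binding protein of heart and lactating gland, had 84.3, 47.01, 46.2, 941 and 13.6 CPM in PDL1+LY rats and 10.3 to 32.5 CPM (median 13.6) in PDL1 rats. It differed from the caseins in that P23, P31 and P32 also lay above every PDL1 rat, and its log2 fold change of 3.77 was 1.51 without P34. Csn3 (kappa-casein) and Lalba (alpha-lactalbumin) were abundant in all 12 rats. Csn3 lay at 6396 to 40886 CPM in PDL1+LY rats and at 2022 to 18396 CPM in PDL1 rats, and Lalba at 1975 to 13156 and 475 to 5075 CPM in the same order. The milk genes were high in both columns of the P34 tumour, with Csn2 at 43050 CPM in the column with more Col3a1 and 24873 CPM in the other by total counts.

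**Figure D3:**
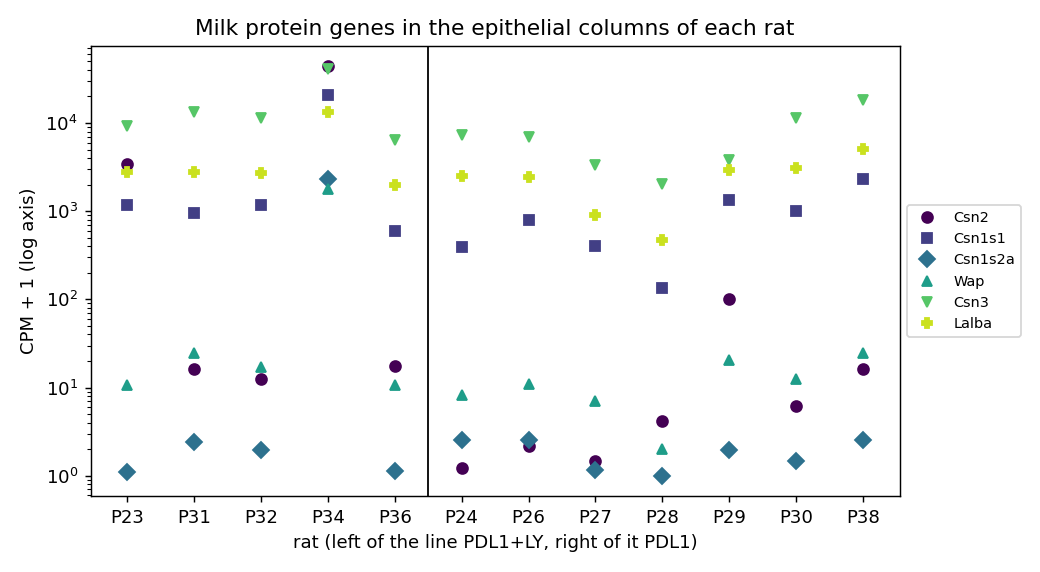
The level of 6 milk protein genes in the summed epithelial columns of each rat, as CPM + 1 on a log axis, is plotted with PDL1+LY rats left of the line and PDL1 rats right of it. Rat P34 stands highest for all 6 genes, and Csn2 spans 0.219 to 43838 CPM over the 12 rats while Csn3 and Lalba vary far less.

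The promoters of 3 caseins with their highest level in P34 are shown because they share a short word. Transcription of caseins in the lactating gland is driven by prolactin through the factor STAT5, whose binding sites have the palindromic form TTCNNNGAA, read alike on both strands. RefSeq promoters (build GRCr8, which is not the build of the counts) run from 250 bases before to 50 after the gene start, 5′ to 3′, with matches in capitals.
Csn2, chr14:20601574-20601873, plus strand: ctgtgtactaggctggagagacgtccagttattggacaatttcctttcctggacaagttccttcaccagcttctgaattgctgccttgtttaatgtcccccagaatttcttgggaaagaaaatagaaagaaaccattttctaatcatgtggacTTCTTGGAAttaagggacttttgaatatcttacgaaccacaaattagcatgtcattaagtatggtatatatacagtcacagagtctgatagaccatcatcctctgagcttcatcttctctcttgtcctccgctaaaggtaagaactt
Csn1s2a, chr14:20574422-20574721, minus strand: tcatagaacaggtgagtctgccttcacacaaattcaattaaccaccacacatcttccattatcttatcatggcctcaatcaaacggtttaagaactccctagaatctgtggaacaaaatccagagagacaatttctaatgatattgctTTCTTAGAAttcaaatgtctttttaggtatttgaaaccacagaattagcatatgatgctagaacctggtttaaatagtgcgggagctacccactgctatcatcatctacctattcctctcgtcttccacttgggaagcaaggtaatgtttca
Csn1s1, chr14:20638800-20639099, minus strand: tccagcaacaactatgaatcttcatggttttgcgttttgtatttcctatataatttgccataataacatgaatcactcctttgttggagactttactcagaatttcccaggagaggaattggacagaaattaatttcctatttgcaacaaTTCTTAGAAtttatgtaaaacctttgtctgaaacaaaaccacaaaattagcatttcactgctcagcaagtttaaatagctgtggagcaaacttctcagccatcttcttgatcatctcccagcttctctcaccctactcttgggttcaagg

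The match begins 97 bases before the start in Csn2 and lies at nearly the same distance in Csn1s2a and Csn1s1. Of the listed milk genes 20 had a RefSeq promoter, and 7 of these held the word (Csn1s1, Csn1s2a, Csn1s2b, Csn2, Glycam1, Lao1 and Prlr), against 8.87% of all 33469 promoters of this length. The Wap promoter window held no match. Csn1s1, an alpha-S1 casein chosen after its values were seen, had 20779 CPM in P34 and 592 to 1189 CPM in the other PDL1+LY rats, against 132 to 2336 CPM in PDL1 rats. A match is a description of letters and not a measured site.

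Luminal keratin and junction genes lay slightly lower in PDL1+LY rats, with a median log2 fold change of -0.22 over 23 tested genes, 16 of them below 0 and 0 at an unadjusted p under 0.05. Krt18, the partner of Krt8, had 1397, 1135, 1559.7, 1771 and 1675 CPM in PDL1+LY rats and 1549 to 3704 CPM (median 1776) in PDL1 rats (log2 -0.56, SE 0.282). Krt19 lay at 1393 to 4811 CPM in PDL1+LY rats and 1617 to 4817 CPM in PDL1 rats (log2 0.08). The claudin Cldn4 lay at 1073 to 4048 CPM in PDL1+LY rats and 1123 to 13975 CPM in PDL1 rats, where P24 was the highest (log2 -1.12, SE 0.751). Both groups overlapped for each of these genes. Hormone receptor genes and their targets (median -0.20) and receptor tyrosine kinases and their ligands (-0.32) also stayed near the median of all genes. Areg, an EGFR ligand induced by oestrogen, ranged from 97.05 to 900.2 CPM in PDL1+LY rats and from 45.05 to 2481 CPM in PDL1 rats.

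By median fold change, genes of the TGF-beta pathway, the target of the added drug, lay near the median of all genes. The list of ligands, receptors and latency proteins had a median log2 fold change of 0.21 over 24 tested genes, 16 of them above 0, and that of response genes 0.03 over 28. The median log2 CPM of the ligand and receptor list was nonetheless 4.7 to 5.38 in PDL1+LY rats and 3.9 to 4.94 in PDL1 rats. Only PDL1 rat P30, at 4.94, lay above any PDL1+LY rat. For the response list these medians were 5.22 to 6.04 and 5.12 to 6.42 in the same order. Tgfb3, the most abundant ligand here, had 316, 621, 489, 598 and 315 CPM in PDL1+LY rats and 127 to 859 CPM (median 318) in PDL1 rats (log2 0.23, SE 0.534). Tgfb2 lay at 53.4 to 102.9 CPM in PDL1+LY rats and 3.58 to 162 CPM in PDL1 rats (log2 0.33), and Tgfb1 at 1.89 to 7.71 and 0.839 to 14.1 CPM in the same order (log2 -0.62).

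Tgfbr1, which encodes the inhibited receptor kinase, had 19.96, 21.4, 13.7, 9.93 and 20.2 CPM in PDL1+LY rats and 10.2 to 32.5 CPM (median 21.3) in PDL1 rats (log2 -0.31, SE 0.383). Its partner Tgfbr2 lay at 18.8 to 44.2 CPM in PDL1+LY rats and 16.9 to 39.1 CPM in PDL1 rats (log2 0.22). The co-receptor Tgfbr3 was the only member of the ligand and receptor list with an unadjusted edgeR p under 0.05, with 34.5, 33.6, 22.3, 25.8 and 18.8 CPM in PDL1+LY rats and 2.56 to 18.9 CPM (median 7.95) in PDL1 rats (log2 1.38, SE 0.484).

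A classic feedback gene overlapped between the groups. Smad7, the inhibitory SMAD that TGF-beta induces, had 11.01 to 56.8 CPM in PDL1+LY rats and 14.7 to 45.3 CPM (median 25.04) in PDL1 rats (log2 0.03, SE 0.365). The response genes with an unadjusted edgeR p under 0.05 were 4, all higher, where 1.88% of all genes were higher at that p: Tgfb1i1, Tagln, the basement membrane collagen Col4a1 (log2 2.13) and the matricellular Ccn2 (log2 1.07). Col4a1 had 685, 544, 168, 498 and 619 CPM in PDL1+LY rats and 40.01 to 319 CPM (median 83.9) in PDL1 rats. Tagln is also a member of the basal list.

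Antigen presentation and interferon-gamma genes were lower in PDL1+LY rats, and the size of the difference rested on few PDL1 rats. Rats P24 and P28 had the highest median log2 CPM of the interferon-gamma list (7.79 and 6.85), while P38 lay low at 5.53. For MHC class I processing the medians were 8.7 in P24, 8.82 in P28 and 7.85 in P38. Of 25 tested interferon-gamma response genes 24 had fold changes below 0, 6 had an unadjusted edgeR p under 0.05 in the lower direction against 1.23% of all genes, and 0 passed. Their median log2 fold change of -0.76 was -0.42 without PDL1 rat P28 and -0.04 without P24, P28 and P38. Genes of MHC class I processing had a median of -0.46 over 25 genes, and -0.08 without these 3 rats. Psmb9, a subunit of the immunoproteasome, had 363, 324, 422, 345 and 472 CPM in PDL1+LY rats and 247 to 1299 CPM (median 446) in PDL1 rats (log2 -0.69, SE 0.393).

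The peptide transporter Tap1, chosen after its values were seen, had 125, 216, 104.3, 110.3 and 191 CPM in PDL1+LY rats and 118.1 to 673 CPM (median 170.2) in PDL1 rats, with P28 and P24 the 2 highest (log2 -0.84, and -0.08 without P24, P28 and P38). The guanylate binding protein Gbp2, chosen in the same way, had 23.95 to 77.1 CPM in PDL1+LY rats and 26.3 to 353 CPM in PDL1 rats, again led by P28 and P24 (log2 -1.51, and -0.02 without the 3 rats). B2m, the light chain of class I molecules, lay at 1871 to 3101 CPM in PDL1+LY rats and 1601 to 4757 CPM in PDL1 rats (log2 -0.24).

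Named MHC class II genes varied by more than a factor of 10 within each group. The invariant chain Cd74 had 5131, 1134, 455, 327 and 189 CPM in PDL1+LY rats and 246 to 13986 CPM (median 679) in PDL1 rats, with P23 highest in one group and P28 in the other (log2 -1.33, SE 1.08). RT1-Da, a class II chain, had 1219 CPM in P23 and 54.4 to 121 CPM in the other PDL1+LY rats, against 63.6 to 3312 CPM in PDL1 rats (log2 -1.27). The list's median was -1.11 over 14 genes, -3.19 within batch 2, 2.46 within batch 3 and 0.40 without P24, P28 and P38, so its direction was not stable. All 4 listed leukocyte markers beside Ptprc (Cd3e, Cd68, Cd74 and Lyz2) were measured and none was at 0 in all rats. By total counts their sum ran from 217 to 6339 CPM in PDL1+LY rats and from 299 to 14300.1 CPM in PDL1 rats, but Cd74, itself a class II gene that is also found in epithelium, made up most of it in every rat. Without Cd74 the sum ran from 15.6 to 782 CPM in PDL1+LY rats and from 28.8 to 493 CPM in PDL1 rats, highest in P23, then P28 at 493 CPM and P24 at 331 CPM (log2 difference -0.34, exact permutation adjusted p = 0.909). T and NK cell genes had a median of -0.95, with 4 of 18 tested genes above 0, and -0.10 without P28. Macrophage genes had a median of 0.72, with 14 of 18 above 0, which was 2.36 without P24, P28 and P38 and -1.14 without P23. The part of leukocyte transcripts in the differences of antigen presentation genes was not tested.

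Checkpoint genes overlapped between the groups, PD-L1 among them. Cd274, which encodes PD-L1, had 7.11, 19.1, 18.6, 2.63 and 13.8 CPM in PDL1+LY rats and 1.26 to 64.4 CPM (median 11.4) in PDL1 rats, P28 being the highest (log2 -0.63, SE 0.639, and 0.10 without P28). The list of checkpoint ligands and receptors had a median of -0.47 over 24 genes and -0.18 without P28. Its most abundant members were Cd200 (211 to 1133 CPM in PDL1+LY rats, 82.8 to 1582 CPM in PDL1 rats), the anti-phagocytic Cd47 (241 to 467 and 226 to 522 CPM in the same order) and Nectin2 (at most 317 and 316 CPM).

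Low members of that list gave the larger fold changes, and they were chosen after their values were seen. Havcr2 (TIM-3), a receptor of exhausted T cells and myeloid cells, had at most 0.459 CPM in PDL1+LY rats and 0.419 to 35.1 CPM in PDL1 rats, with P28 the highest (log2 -5.59 and -3.84 without P28, DESeq2 adjusted p = 0.0211). The co-stimulatory ligand Cd80 had 0.0821 to 0.857 CPM against 0.789 to 23.7 CPM in PDL1 rats (log2 -3.44 and -2.39 without P28, DESeq2 adjusted p = 0.0495). Cd86, the other ligand of CD28, had a log2 fold change of -3.82, and of 0.25 without P28. These 3 were the list members lower at an unadjusted edgeR p under 0.05, where 1.23% of all genes were lower. The 2 members higher at that p, where 1.88% of all genes were higher, were Nt5e (log2 1.43) and Vsir (log2 1.25).

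**Figure D4:**
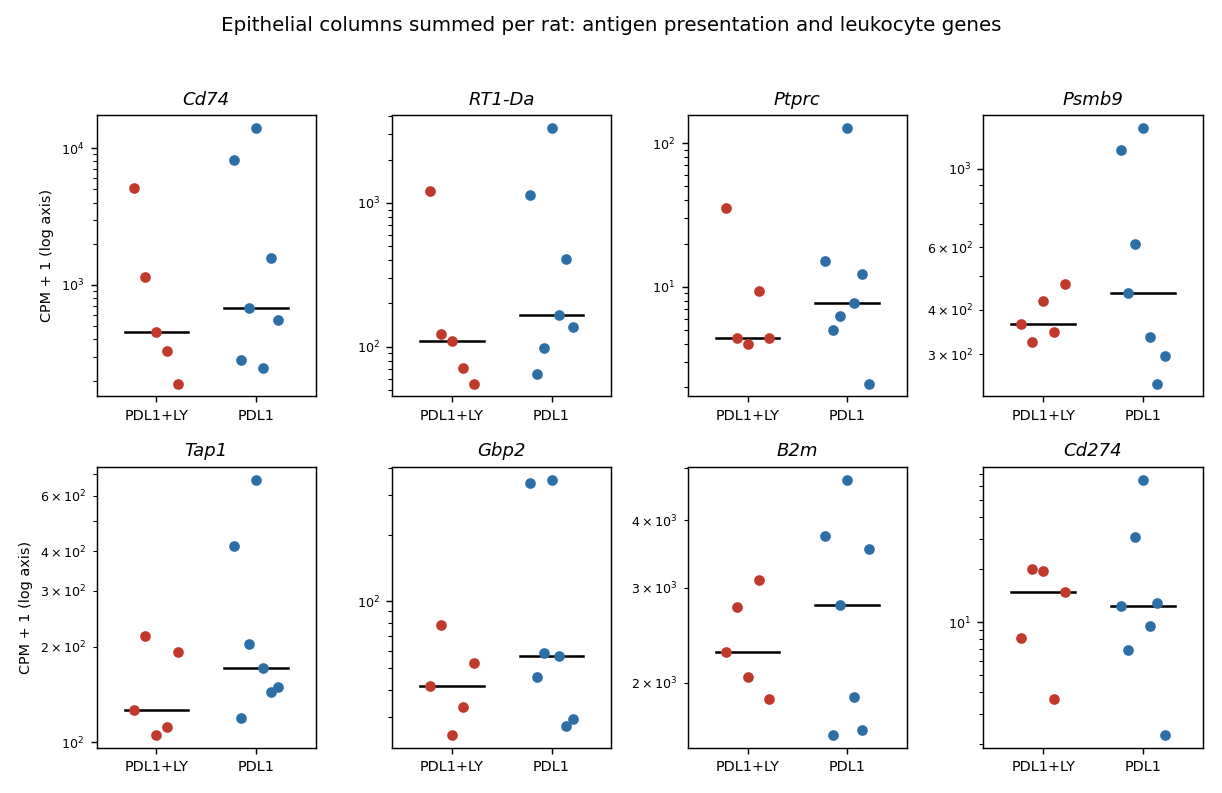
Each panel plots 1 gene of antigen presentation, PD-L1 or leukocytes, with the level in the summed epithelial columns of each rat as CPM + 1 on a log axis, PDL1+LY rats (5, red) left of PDL1 rats (7, blue), and bars at the group medians. PDL1 rats P28 and P24 stand highest for Tap1 and Gbp2, whose medians are 125 and 40.6 CPM in PDL1+LY rats and 170.2 and 55.5 CPM in PDL1 rats.

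Matrix, hypoxia and glycolysis genes leaned higher in PDL1+LY rats, and 0 of them passed the test. The extracellular matrix and fibroblast list had a median log2 fold change of 0.83 over 29 tested genes, 27 of them above 0, which was 0.37 without PDL1+LY rat P36 and 0.03 with Ptprc and Col1a1 as covariates. Col3a1, a fibrillar collagen, had 171, 147, 83.4, 644 and 1469 CPM in PDL1+LY rats and 9.62 to 418 CPM (median 184) in PDL1 rats (log2 1.31, SE 0.962). The matricellular protein Sparc had 203 to 936 CPM against 25.9 to 673 CPM in PDL1 rats (log2 1.12). P36 had the highest values of both. The rule kept columns with Col1a1 below Epcam, and Col3a1 goes with Col1a1 (Pearson r of log2 CPM 0.96). Matrix levels are therefore in part a consequence of the rule. The columns it left out on Col1a1 alone came from PDL1 rats P24, P26, P29 and P30 and from PDL1+LY rat P33.

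Hypoxia genes had a median of 0.57 over 23 genes, 21 of them above 0 and 7 at an unadjusted edgeR p under 0.05 in the higher direction against 1.88% of all genes, and glycolysis genes a median of 0.40 over 19 genes, 18 of them above 0 and 5 at that p. The hypoxia median was 0.18 without P34. Aldoa, an aldolase of glycolysis and a member of both lists, had 1605, 903, 1818, 1893 and 789 CPM in PDL1+LY rats and 595 to 1424 CPM (median 911) in PDL1 rats (log2 0.60, SE 0.242). Ldha, which makes lactate, had 609 to 1622 CPM in PDL1+LY rats and 482 to 1562 CPM in PDL1 rats (log2 0.40).

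Proliferation genes lay close to the median of all genes. The 39 tested cell cycle and replication genes had a median log2 fold change of 0.03, with 0 at an unadjusted p under 0.05 in either direction. Pcna, the sliding clamp of DNA polymerase, had 111.2, 132, 102.8, 153 and 143 CPM in PDL1+LY rats and 71.97 to 214 CPM (median 129.8) in PDL1 rats, and the helicase subunit Mcm7 82.1 to 155 and 79.3 to 199 CPM in the same order. The mitochondrial respiratory chain (0.06), sterol and fatty acid synthesis (0.03), Wnt and Notch (0.01), p53 targets (0.08), the unfolded protein response (0.13), apoptosis (-0.12), type I interferon response (-0.15) and genes of dissociation stress (-0.24) had medians near that of all genes.

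**Figure D5:**
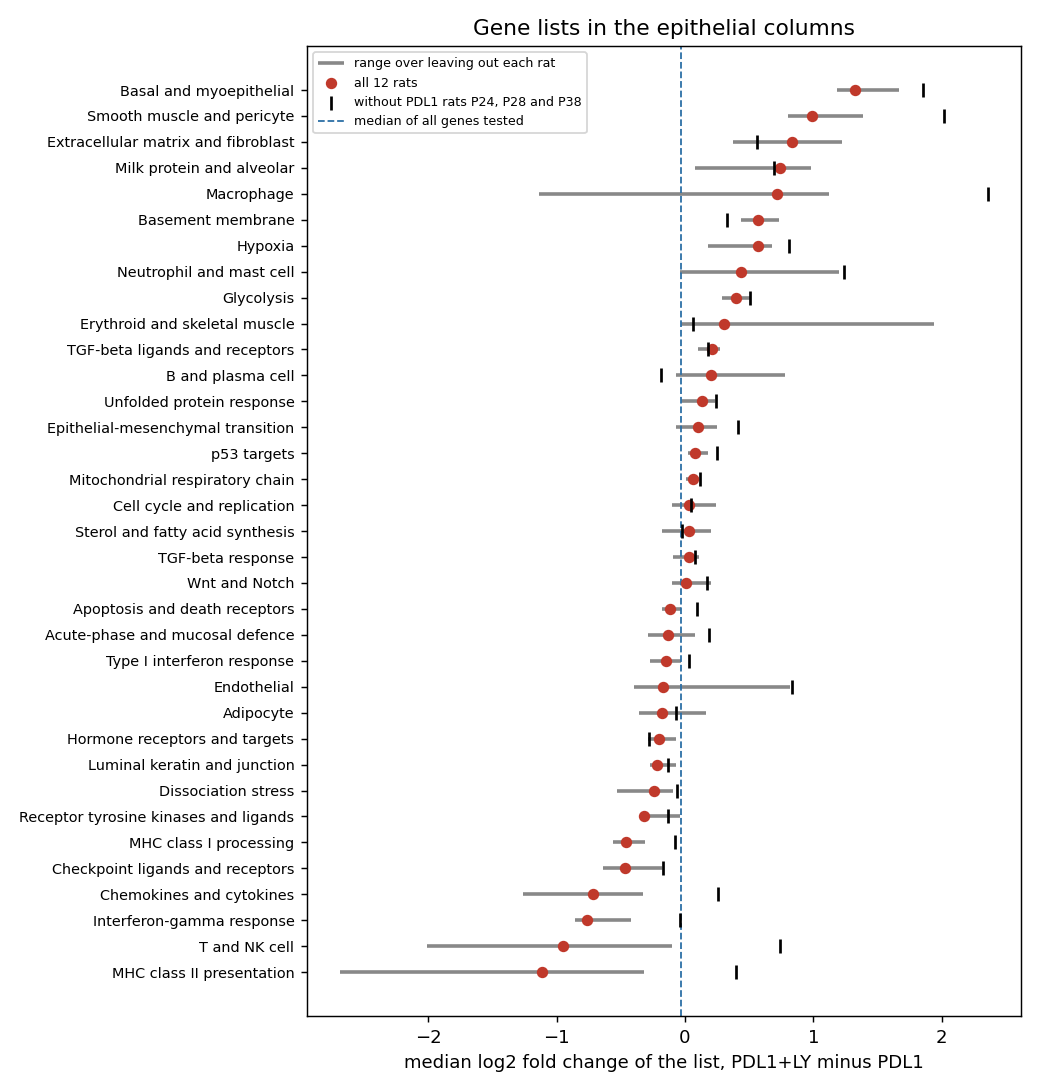
Red points give the median log2 fold change (PDL1+LY minus PDL1) of each of 35 gene lists, grey bars its range when each of the 12 rats was left out in turn, black ticks the median without PDL1 rats P24, P28 and P38, and the dashed line the median of all 13027 genes (-0.031). The basal list stands highest at 1.32 with a short bar, while the bars of leukocyte lists are long.

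The only 4 genes in which every PDL1+LY rat lay below every PDL1 rat (0.0307% of genes) were singled out for that reason. Hcfc1, a chromatin-associated cofactor, had 30.2, 24.7, 18.5, 23.6 and 28.2 CPM in PDL1+LY rats and 31.9 to 46.97 CPM (median 35.7) in PDL1 rats (log2 -0.61, SE 0.198). The zinc finger gene Zfp956 had 3.10 to 4.94 CPM against 5.24 to 10.2 CPM in PDL1 rats (log2 -0.76). Agmat and the muscle phosphoglycerate mutase Pgam2 had at most 0.803 and 1.39 CPM in PDL1+LY rats.

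Whether the inhibitor made the same difference without the antibody was asked by setting PDL1+LY minus PDL1 against LY minus Vehicle, with epithelial columns of 4 LY and 5 Vehicle rats. By edgeR 0 of 13027 genes (0%) differed between the contrasts at 0.05, 532 did at an unadjusted p under 0.05, and DESeq2 called 4 of 12990 genes (0.0308%), Plod1, Havcr2, Cd80 and Msx3. LY rats against Vehicle rats gave 0 called genes by edgeR and 902 at an unadjusted p under 0.05. The basal and myoepithelial list had a median log2 fold change of -0.21 between LY and Vehicle rats, beside 1.32 between PDL1+LY and PDL1 rats. The LY sums held 1 column each from P17, P19 and P21 and 3 from P22. Vehicle sums held 1 column each from P4, P8 and P10, 2 from P7 and 3 from P39. Basal genes varied between columns of a tumour, and the part of column choice in these contrasts was not tested.

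Acta2 averaged 28.05 CPM in LY rats and 30.8 CPM in Vehicle rats, and the 2 contrasts differed by 2.75 on the log2 scale (unadjusted edgeR p = 0.0114, adjusted p = 1.0). Plod1 averaged 89.5 CPM in LY rats and 126 CPM in Vehicle rats, and the contrasts differed by 1.81 (unadjusted edgeR p = 0.000208, adjusted p = 1.0). Irx4 averaged 31.9 CPM in LY rats and 14.1 CPM in Vehicle rats, so that it was higher beside the inhibitor in both contrasts (log2 1.18 and 1.92), with a difference of 0.74 between them (unadjusted edgeR p = 0.202). Il17b averaged 8.69 CPM in LY rats and 10.3 CPM in Vehicle rats.

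The sample table gives 4 measurements of the tumours, and 0 of them passed the test. Tumour size, in a unit the table does not state, ran from 5.5 to 45 (median 30) in PDL1+LY rats and from 3 to 26 (median 10) in PDL1 rats (exact permutation p = 0.129, 0.515 after adjustment over 4 measurements). Growth rate had a median of 4.33 in PDL1+LY rats and 1.97 in PDL1 rats (exact permutation p = 0.261). The CD8 fraction was given for 2 of the PDL1+LY rats (0.0397 and 0.0541) and for all 7 PDL1 rats (0.0224 to 0.380, median 0.0437; exact permutation p = 0.639). The time from NMU to sacrifice had the same median in both groups (exact permutation p = 0.553). The highest CD8 fraction was that of rat P28.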

How the data were processed

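Whole-transcriptome libraries were made with a SMARTer kit from under 10 ng of RNA of sorted tumour cells, per the labels' protocols. The deposited table holds raw read counts per gene symbol for 17455 genes, and its reads were aligned to rn6 with STAR after FastQC, per the submitters' processing notes. No source used here names the counting tool or says whether it used strand. The deposited sample table gives the CD8 value as a fraction, with no stated denominator, and batch, size, growth and time without units. Groups came from the labels of each rat, and 1 column of the table matched no label and was not used.

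Counts of the epithelial columns were summed per rat, and the rat is the replicate, so that the p-values measure the spread between rats. Genes passing filterByExpr were fitted with edgeR 4.0.16 (TMM, robust quasi-likelihood) over PDL1+LY, PDL1, LY and Vehicle rats, with Benjamini-Hochberg adjustment and a threshold of 0.05. The SE is the fold change divided by the root of F. DESeq2 1.42.0, limma 3.58.1 (voom), other filters, other column rules, batch terms and leaving out rats were tried as alternatives. Marker sums (pseudocount 1) and tumour measurements had exact two-sided permutation tests. The scripts were tested on simulated data. The rule for named genes took the largest changes among genes that pass (none here), the 20 with the smallest p, up to 3 abundant members of each list and fixed marker and pathway genes, of which Pdcd1 was not tested and 1 is not reported here. Others are said to be chosen after their values were seen, were called by DESeq2, or are the list members at an unadjusted p under 0.05. The columns, members and lists were chosen with earlier results of these data known. The number of rats limits the precision. Values under the 3 counts that a total allows as 0 (0.0632 to 0.687 CPM by rat), as for Csn1s2a and Havcr2 in some rats, rest on very few reads.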

Additional observations from a re-analysis of the deposited data

Results flagged for a closer look

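Within groups of 5 or 7 rats, a rat was singled out where its gap to the nearest rat, divided by the whole range of log2 CPM, passed Dixon's critical value. Of 189 groups of values 14 did so, and chance alone gives about 1 in 20.

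The milk genes of PDL1+LY rat P34 gave 4 of them: Csn1s1 at 20779 CPM, Lalba at 13156 CPM, Csn1s2a at 2346 CPM and Wap at 1765 CPM. PDL1+LY rat P32 was low for the basement membrane collagen Col4a1 at 168 CPM, for Myh11 at 49.2 CPM and for Jam3 at 27.9 CPM. Il17b was lowest among PDL1+LY rats in P36, at 34.4 CPM, which still lay above every PDL1 rat. The class II gene RT1-Da stood at 1219 CPM in P23, the PDL1+LY rat with the highest leukocyte sum with or without Cd74.

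PDL1 rat P28 was singled out in 4 measures. Myh11 and Snai2 stood there at 0 CPM, where its total allows up to 0.303 CPM for 3 counts. The co-stimulatory ligand Cd86, found on antigen-presenting cells, stood at 132 CPM, and the CD8 fraction of its tumour was 0.38. Agmat was highest in PDL1 rat P38, at 1.68 CPM.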

How the results depend on the processing

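No gene passed in the comparison of PDL1+LY with PDL1 rats under any setting except DESeq2 with 12 genes, the deepest column per rat with 2 (Col18a1 and Cav1) and batch 2 columns with 1 (Krt5). The difference between the inhibitor contrasts gave 4 genes by DESeq2 and 0 under the other settings run. The myoepithelial sum (log2 2.04) was called under TMM scaling and without Acta2. It ranged from 1.8 to 2.23 when each rat was left out, with exact permutation adjusted p of 0.0173 to 0.0727, and missed the threshold without P23. With fewer rats the smallest possible p cannot pass over 8 sums on its own. The sum gave 2.12 in batch 2, 1.80 in tumours with 2 epithelial columns and 2.18 without P24, P28 and P38. The groups did not overlap in these settings. The sum gave 0.95 in batch 3 (exact permutation p = 0.467) and 1.74 in columns with Col1a1 under 100 CPM (exact permutation p = 0.0714). In both of the latter the groups overlapped and the p lay above the smallest possible. The leukocyte sum without Cd74 differed by -0.34. Sums that were not called changed sign: leukocyte in batch 3 (1.92) and without the 3 rats (0.39), adipocyte in batch 2 (-0.78), endothelium in batch 3 (1.06) and without the 3 rats (0.58). Leaving out each rat moved adipocyte from -0.24 to 0.32, endothelium from -0.32 to 0.26 and the time from NMU to sacrifice from -6.71 to 33.04 in the table's unit. Csn1s2a was -2.18 and Scgb1a1 -0.97 in batch 3, which lacks P34, and Csn1s2a ran from -0.41 to 9.44 over the leave-outs. Over 27 settings the 20 leading genes kept their direction and side of the threshold in 523 of 536 values, the other named genes moved by less than 1 SD between rats in 3335 of 3415, and list medians in 922 of 945. The cause of these changes was not tested. Settings on batch, Col1a1, Acta2, Cd74, tumours with 2 columns and the 3 rats, and the leave-outs of sums and measurements, were chosen after seeing the data. No paired analysis was possible because the groups share no replicate numbers, which are rat numbers.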

Other observations

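Some gene groups of cells other than the epithelium were also measured in the epithelial columns. Haemoglobin transcripts (Hba-a1 and Hbb) summed to 8.53 to 629 CPM in PDL1+LY rats and 0 to 1508 CPM in PDL1 rats, and the actin and creatine kinase of skeletal muscle (Acta1 and Ckm) to 2.02 to 139.5 CPM in PDL1+LY rats and 0.673 to 23.6 CPM in PDL1 rats, by total counts. Endothelial markers stayed at 9.91 to 32.5 CPM in PDL1+LY rats and 7.08 to 65.9 CPM in PDL1 rats, and adipocyte markers at or below 16.97 CPM in all 12 rats. None of these sums passed its exact permutation test.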
